A study of Mus musculus with 6 samples.

Results

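Chemokines and their receptors were followed in RNA from 6 tumours of UV2237M, a mouse fibrosarcoma line (a malignant tumour of connective tissue cells). The members were all gene symbols of the count tables that open with Ccl, Cxcl, Cx3cl, Xcl, Ccr, Cxcr, Cx3cr, Xcr or Ackr and a digit, which gave 62 of 23183 symbols, 39 ligands and 23 receptors. All 6 tumours carry the labels tumour tissue and wild-type genotype. The untreated group is 3 tumours labelled as having had no treatment. The treated group is 3 tumours given gold nanoclusters (GNC, clusters of gold atoms) on day 1 and again on day 7, and irradiated with near-infrared light (NIR). No group had only GNC or only NIR here, so the particle and the light cannot be told apart. The labels give neither the host strain nor how long after irradiation the tumours were taken. They also do not say whether the tumours came from separate animals, so p-values measure the spread between these samples, which may be technical.

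Chemokines are small secreted proteins that draw white blood cells along a gradient by binding G protein-coupled receptors. Inflammatory chemokines are made on demand by stressed tissue and by macrophages and fibroblasts, while homeostatic chemokines guide the steady traffic of lymphocytes and stem cells. Atypical receptors (Ackr genes) bind chemokines without G protein signalling and clear or present them. The ligands were grouped by the cell they are best known to attract, as neutrophil, monocyte, T cell, eosinophil or homeostatic chemokines, and the receptors by the same scheme with the atypical receptors apart. Many ligands attract several cell types, so the groups are a guide to reading and not exclusive.

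Total counts ran from 4680295 to 8019294 per library, and the members together held 0.0430% to 0.0830% of them. Values below are CPM, counts scaled to a library of 1000000 with TMM (a method that aligns libraries on the bulk of their genes), where 1 count is worth 0.123 to 0.223 CPM. Untreated 2 stood apart, with a mean distance of 1.22 log2 CPM to the other libraries against 0.611 to 0.729 for the rest. Genes with AT-rich transcripts were high in it: its median tested gene lay 0.762 log2 above the other libraries in the lowest of 5 bins by GC content and at -0.758 in the highest. Fibroblast or fibrosarcoma markers, 8 genes in all, summed to 25990 to 37810 CPM over the libraries, mostly from *Col3a1*. Among these genes untreated 2 was lowest in *Col1a1* (59.4 CPM against 1975 to 4255 in the others) and *Col1a2* (48.0 against 326 to 2240). It was also lowest in *Fn1*, *Pdgfrb* and *Thy1*, highest in *S100a4*, and within the range of the others in *Col3a1* and *Vim*. Skeletal muscle markers reached 342.9 CPM in treated 3 against 2.31 to 82.9 in the others. Of the 62 members, 15 had fewer than 10 counts in all 6 libraries together, and 32 passed edgeR's filter on low counts and were tested. Passing depends on the counts in either group, so the tested members do not stand for all 62.

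Treated were compared with untreated tumours to see how chemokine RNA differed after GNC with NIR. Of the 32 tested members 18 lay higher and 14 lower in treated tumours (49.9% and 50.1% of all tested genes). Among ligands 14 of 21 lay higher and among receptors 7 of 11 lay lower. The higher ligands were chiefly those for neutrophils and inflammatory monocytes, whereas the tested ligands for T cells and the monocyte receptors *Ccr1*, *Ccr2* and *Cx3cr1* were all lower. No member passed edgeR's quasi-likelihood test with Benjamini-Hochberg adjustment over all 12517 tested genes (smallest adjusted p 0.592), as no gene did (0% called in either direction). At an unadjusted p under 0.05 in edgeR, 5 of the 32 members were higher, against 3.32% of all tested genes, and 6 were lower, against 4.85%. The treated values lay above each untreated value in 8 members, as they did in 10.6% of tested genes, and below in 6, as in 10.2%. The median log2 fold change was 0.48 over the tested members, 0.86 over ligands and -0.49 over receptors, against -0.0010 over all tested genes. DESeq2 called 1 member at an adjusted p under 0.05, *Ackr4*, where it called 0.232% of genes lower and 0.136% higher. At an unadjusted p under 0.05 it had 9 members higher and 6 lower, against 4.12% and 6.15% of genes. The limma-voom test called 0 members (0% of genes), with 9 higher and 5 lower at an unadjusted p under 0.05, against 3.62% and 3.94% of genes.

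**Figure D1:**
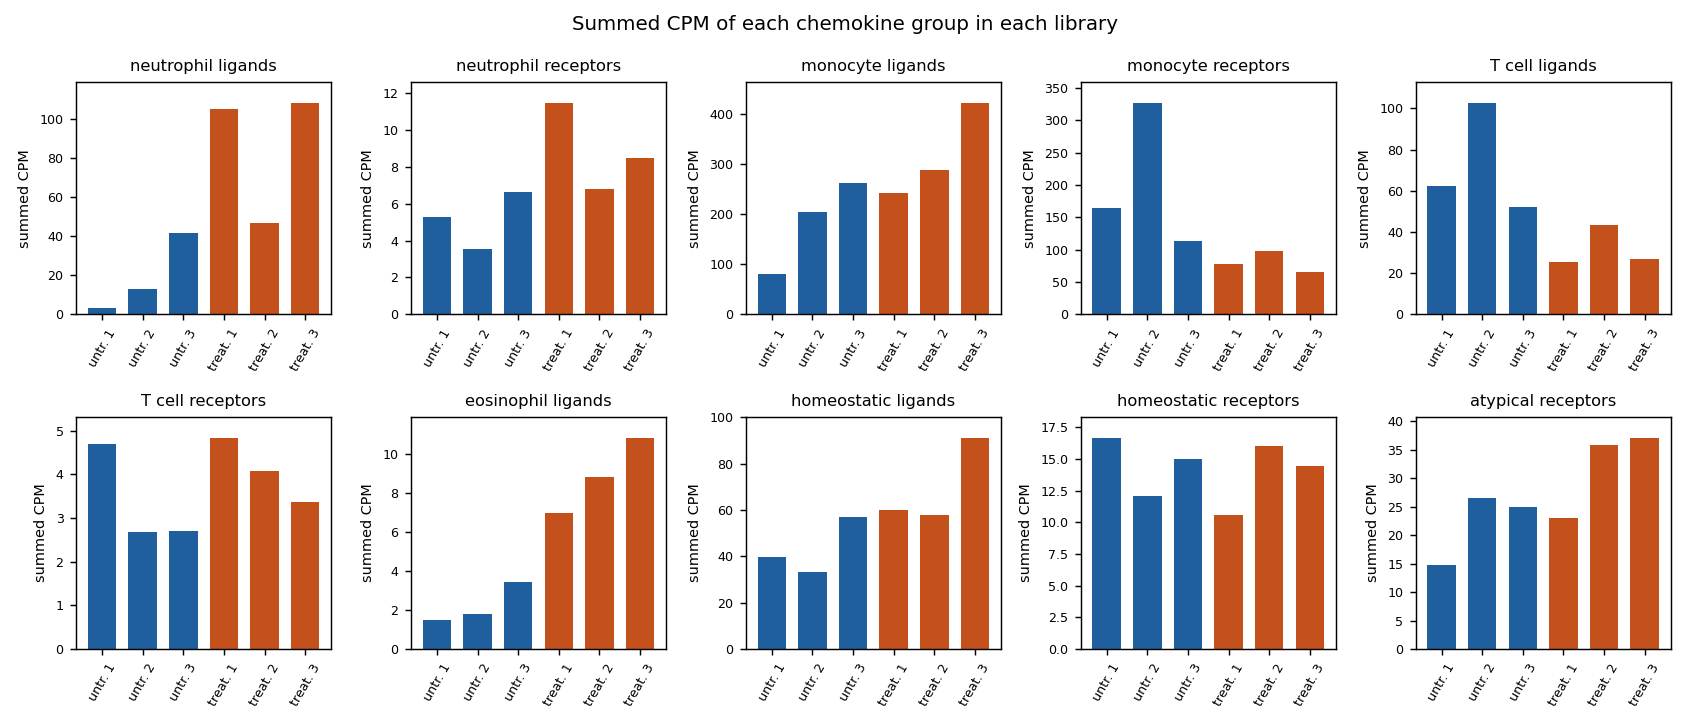
Summed CPM (vertical axes, linear and starting at 0) of the members of each group in each library (eosinophil receptors, with *Ccr3* alone, are not drawn), untreated in blue and treated in orange, 1 bar per library. Neutrophil ligands ran from 3.18 to 41.6 CPM in untreated and from 46.9 to 108.2 CPM in treated libraries, while monocyte receptors (*Ccr1*, *Ccr1l1*, *Ccr2* and *Cx3cr1*) ran from 113.5 to 326.3 and from 66.3 to 98.4 CPM.

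Ligands for neutrophils act on the receptor Cxcr2 and lie close together on chromosome 5. All 4 tested genes of the group, *Cxcl1*, *Cxcl2*, *Cxcl3* and *Cxcl5*, had a log2 fold change above 0, with a median of 2.23. Their group sum, with *Cxcl15* included, was 3.18, 13.2 and 41.6 CPM in untreated 1, 2 and 3, against 105.3, 46.9 and 108.2 CPM in treated 1, 2 and 3. The untreated libraries thus spread over a wide range, with untreated 3 close to the lowest treated library, and the log2 ratio of the group means was 2.17 with all libraries, 3.41 without untreated 3 and 1.65 without untreated 1.

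The stretches just before the starts of *Cxcl1*, *Cxcl2* and *Cxcl3* are shown because these neighbouring genes were all lowest in untreated 1, as *Cxcl5* was too. They are the 250 bases before the RefSeq start (build GRCm38.p6, which is mm10), read 5′ to 3′ on the plus strand at chr5:90890995-90891244, chr5:90903649-90903898 and chr5:90785851-90786100, and capitals mark matches to GGNNTTTCC, a form of the motif that NF-kB binds, on either strand.
Cxcl1: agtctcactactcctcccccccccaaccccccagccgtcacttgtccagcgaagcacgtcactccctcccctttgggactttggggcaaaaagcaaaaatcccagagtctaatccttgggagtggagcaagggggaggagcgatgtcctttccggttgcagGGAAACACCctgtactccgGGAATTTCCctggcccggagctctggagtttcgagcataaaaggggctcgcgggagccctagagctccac
Cxcl2: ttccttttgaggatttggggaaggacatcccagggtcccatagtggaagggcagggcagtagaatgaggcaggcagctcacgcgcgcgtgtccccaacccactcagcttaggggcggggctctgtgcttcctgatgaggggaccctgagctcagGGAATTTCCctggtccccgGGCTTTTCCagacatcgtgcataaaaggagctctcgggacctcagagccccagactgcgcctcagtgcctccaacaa
Cxcl3: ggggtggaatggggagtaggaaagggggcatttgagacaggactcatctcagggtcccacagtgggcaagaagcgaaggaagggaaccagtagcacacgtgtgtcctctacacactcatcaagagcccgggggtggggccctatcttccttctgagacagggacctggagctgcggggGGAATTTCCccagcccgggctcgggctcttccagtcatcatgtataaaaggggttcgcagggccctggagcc
The matches begin 89 (reverse strand) and 70 bases before the start in *Cxcl1*, 96 and 77 bases before it in *Cxcl2*, and 72 bases before it in *Cxcl3*. Among 32851 RefSeq windows of this length 4.93% hold the motif, as do 9 of the 46 members with a window (19.6%), the other six being *Ccl9*, *Ccl20*, *Cxcl9*, *Cxcl10*, *Ccr3* and *Ackr4*. The AP-1-like motif TGANTCA, searched on both strands, is in none of the 3 windows shown, in 6 of the 46 members' windows and in 6.75% of all windows, and no match to it overlaps one to GGNNTTTCC. The window of *Cxcl15*, a neutrophil ligand of chromosome 5 with 23 counts in untreated and 3 in treated tumours, holds no match to GGNNTTTCC. A match describes the letters only, and neighbouring paralogs share sequence by descent.

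*Cxcl1* (chromosome 5, 90891241 to 90893115) had 1.66, 7.36 and 11.5 CPM in untreated 1, 2 and 3, against 27.0, 17.4 and 28.2 CPM in treated 1, 2 and 3. Treated and untreated values did not overlap, and untreated 1 was the lowest. Its log2 fold change was 1.81 ± 0.60 (SE), with an unadjusted p of 0.0194 in edgeR and an adjusted p of 0.592. *Cxcl2* (chromosome 5, 90903871 to 90905938), also known as macrophage inflammatory protein 2, had the highest mean CPM of the group, with 0.302, 0.446 and 16.4 CPM in untreated and 46.8, 12.2 and 47.5 CPM in treated 1, 2 and 3. Untreated 3 lay above treated 2, so the groups overlapped, and the log2 fold change of 2.56 ± 1.23 had an unadjusted p of 0.0751 in edgeR. *Cxcl3* had 0.151, 0.669 and 6.75 CPM against 24.3, 3.54 and 18.4 CPM, again with untreated 3 above treated 2, and its log2 fold change was 2.51. *Cxcl5* had 0.151, 2.68 and 5.89 CPM in untreated and 7.15, 13.5 and 13.9 CPM in treated 1, 2 and 3, without overlap, and its log2 fold change of 1.95 went to 3.14 when untreated 3 was left out. Treated 2 was thus the lowest treated library for *Cxcl1*, *Cxcl2* and *Cxcl3* and treated 1 for *Cxcl5*. These genes are close paralogs, and how the authors' counting placed reads shared among them is not given in the sources used here.

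The receptor *Cxcr2* (chromosome 1, 74153989 to 74161246), through which these ligands act, had 5.29, 3.57 and 6.38 CPM in untreated and 11.4, 6.80 and 8.46 CPM in treated 1, 2 and 3. The groups did not overlap, with treated 2 just above untreated 3, and the log2 fold change was 0.79 ± 0.34 (unadjusted p 0.0545 in edgeR). *Cxcr1*, the other receptor of this group, had 2 counts in all. In bulk tumour RNA, fewer cells of a type and less RNA per cell cannot be told apart. Of 12 neutrophil markers 11 were in the tables and 8 tested. Of these 7 were higher and 1 lower (49.9% and 50.1% of all tested genes), and none was at an unadjusted p under 0.05 in edgeR. Their summed CPM was 17.1 to 72.3 in untreated and 59.3 to 113.1 in treated libraries, and *Camp* and *Ngp*, markers of immature neutrophils, were at 0 in most libraries. The neutrophil ligands and these markers were both lowest in untreated 1 and highest in treated 3, and the part of the cell type in the ligand values was not tested.

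**Figure D2:**
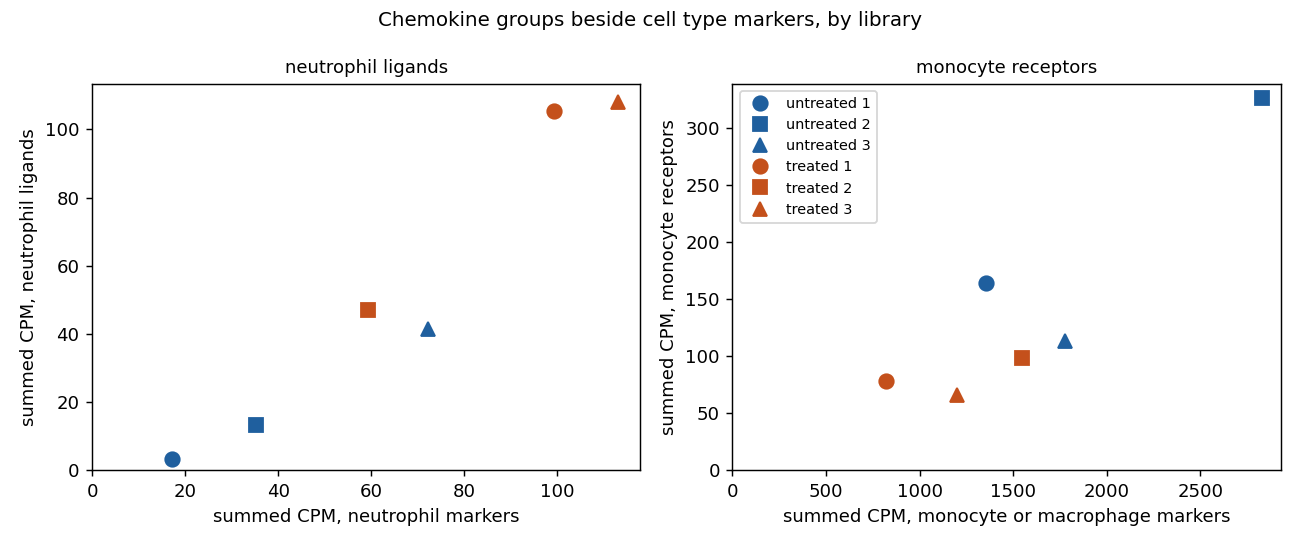
Summed CPM of neutrophil ligands against neutrophil markers (left) and of monocyte receptors against monocyte or macrophage markers (right), 1 point per library, axes linear from 0. Untreated 1 is lowest in the left panel at 3.18 CPM of ligands, and untreated 2 is highest in the right panel at 326.3 CPM of receptors.

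Ligands for monocytes and macrophages held the members of highest level per length. Of the 9 tested, 6 were higher in treated tumours (*Ccl2*, *Ccl3*, *Ccl4*, *Ccl6*, *Ccl7* and *Ccl9*) and 3 lower (*Ccl8*, *Ccl12* and *Cx3cl1*), and *Ccl4* alone had an unadjusted p under 0.05 in edgeR. The group sum was 80.0, 205.1 and 263.6 CPM in untreated and 243.3, 288.9 and 421.7 CPM in treated 1, 2 and 3, so untreated 3 overlapped treated 1, and the log2 ratio of the means was 0.80, or 0.43 without untreated 1. *Ccl2* (chromosome 11, 82035571 to 82037453), the main attractant of Ccr2-bearing monocytes, had 12.6, 71.6 and 52.5 CPM in untreated and 65.4, 74.0 and 93.3 CPM in treated tumours. Untreated 2 lay inside the treated range, and the log2 fold change of 0.77 ± 0.56 had an unadjusted p of 0.208 in edgeR. *Ccl7*, another Ccr2 ligand, had 12.6, 33.5 and 26.4 CPM against 35.9, 42.7 and 52.1 CPM, without overlap, and a log2 fold change of 0.86 ± 0.37. *Ccl12*, a mouse Ccr2 ligand, lay in the other direction with 8.92, 14.7 and 12.0 CPM against 5.19, 9.93 and 9.20 CPM. Its groups overlapped, and the log2 fold change of -0.54 had an unadjusted p of 0.154 in edgeR. The estimates for ligands of this receptor thus differed in sign, but *Ccl2*, *Ccl7* and *Ccl12* were each at an unadjusted p above 0.05 in edgeR. *Ccl7* was close to that limit, with an unadjusted p of 0.0507 in edgeR and 0.0468 in DESeq2.

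*Ccl4* (chromosome 11, 83662584 to 83664683), a chemokine made by activated macrophages, had 0, 0.223 and 1.60 CPM in untreated 1, 2 and 3, which are 0, 1 and 13 counts, and 3.22, 3.81 and 7.34 CPM in treated 1, 2 and 3. The groups did not overlap, and the log2 fold change of 2.81 ± 0.92 had an unadjusted p of 0.0186 in edgeR and an adjusted p of 0.592. Its neighbour *Ccl3*, a ligand of Ccr1, had 0.454, 0.223 and 6.26 CPM in untreated and 11.3, 5.85 and 13.8 CPM in treated 1, 2 and 3. Untreated 3 lay above treated 2, and the log2 fold change was 2.05 ± 0.96. *Ccl6* and *Ccl9*, Ccr1 ligands of rodents made by macrophages, had 5.29, 17.2 and 72.8 CPM against 61.9, 64.3 and 137.3 CPM, and 13.9, 37.7 and 49.7 CPM against 47.6, 51.3 and 86.0 CPM. In both of them untreated 3 lay within the treated range, as it did in *Cxcl2*, *Cxcl3* and *Ccl3*. *Ccl8* had 14.2, 23.0 and 33.0 CPM against 7.15, 27.6 and 20.3 CPM. *Cx3cl1*, the membrane-bound ligand of Cx3cr1, had 12.1, 6.92 and 9.45 CPM against 5.72, 9.39 and 2.49 CPM.

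**Figure D3:**
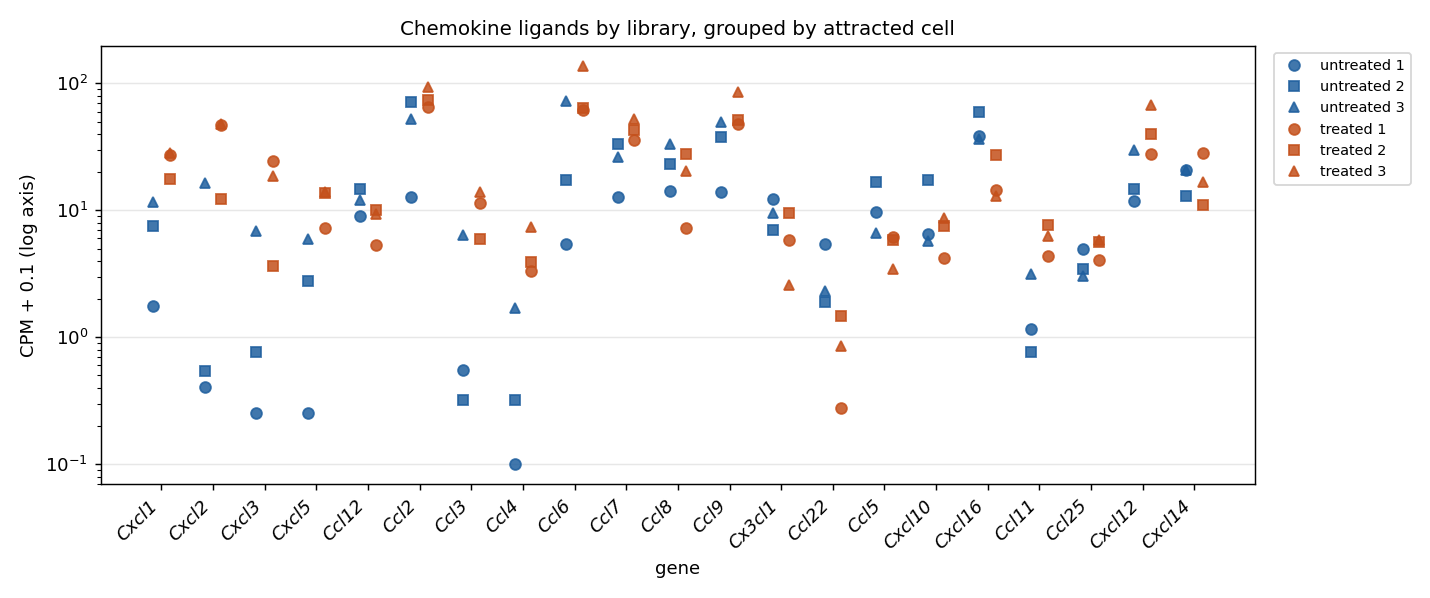
CPM plus 0.1 (vertical log axis) of the 21 tested ligands in each library, untreated in blue and treated in orange, with 1 marker shape per replicate number. The untreated points spread widely in *Cxcl2*, from 0.302 to 16.4 CPM, and the treated points of *Cxcl16* and *Ccl22* lie below the untreated ones.

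The receptors *Ccr1*, *Ccr2* and *Cx3cr1* of monocytes and macrophages lay lower in treated tumours. The log2 ratio of the group means of their summed CPM, with *Ccr1l1* included, was -1.32, and -0.79 without untreated 2. *Ccr2* (chromosome 9, 124101950 to 124113557), which carries monocytes from marrow and blood into tissue, had 68.7, 187.5 and 40.7 CPM in untreated 1, 2 and 3, against 32.4, 40.7 and 26.1 CPM in treated 1, 2 and 3. All treated values were below the untreated ones, but untreated 3 lay only just above treated 2. Its log2 fold change of -1.58 ± 0.55 had an unadjusted p of 0.0239 and an adjusted p of 0.592 in edgeR, and was -0.73 without untreated 2, where *Ccr2*, whose longest transcript has 39.4% GC, was highest. *Cx3cr1* (chromosome 9, 119901616 to 120069879), the fractalkine receptor of resident macrophages and patrolling monocytes, had 65.3, 29.7 and 39.4 CPM in untreated and 13.2, 24.8 and 16.8 CPM in treated tumours. Without overlap of the groups, untreated 2 was here the lowest untreated library. Its log2 fold change was -1.29 ± 0.37 (unadjusted p 0.00953, adjusted p 0.592 in edgeR), and -1.51 without untreated 2.

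*Ccr1*, a receptor for Ccl3, Ccl6 and Ccl9, had 30.6, 109.1 and 33.2 CPM in untreated and 32.4, 32.9 and 23.4 CPM in treated tumours. The high mean of the untreated group rests on untreated 2, without which the log2 fold change went from -0.96 to -0.12. Monocyte or macrophage markers lay in the same direction in part. Of 13 tested, 9 were lower and 4 higher (50.1% and 49.9% of all tested genes). At an unadjusted p under 0.05 in edgeR 5 were lower, against 4.85% of all tested genes. Their summed CPM was 1355, 2829 and 1776 in untreated and 819.9, 1548 and 1198 in treated 1, 2 and 3. No marker was at 0, but *Ly6c2*, a marker of inflammatory monocytes, had only 0.736 to 5.36 CPM. Their part in the receptor values was not tested.

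**Figure D4:**
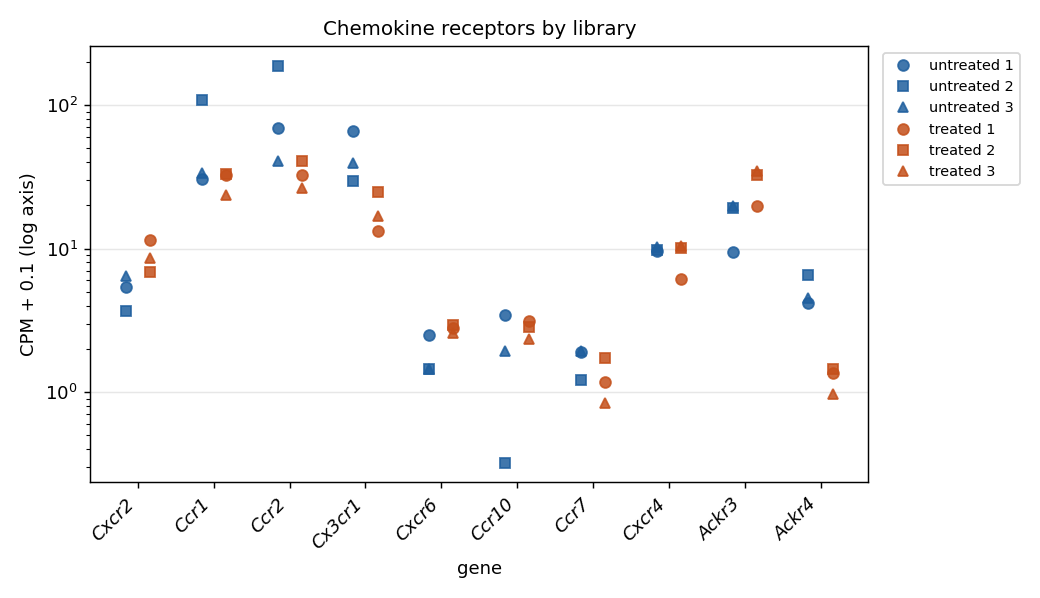
CPM plus 0.1 (vertical log axis) of tested receptors in each library, untreated in blue and treated in orange, with 1 marker shape per replicate number. *Ackr4* shows untreated points from 4.08 to 6.47 CPM above treated points from 0.870 to 1.36 CPM, and untreated 2 (square) is the highest point in *Ccr1* and *Ccr2*.

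Ligands for T cells lay lower in treated tumours in all 4 tested cases (50.1% of all tested genes did). At an unadjusted p under 0.05 in edgeR 3 of them were lower, against 4.85% of all tested genes. *Cxcl16* (chromosome 11, 70453983 to 70459984), a membrane-bound chemokine of macrophages that binds Cxcr6, had the highest CPM of the group, not scaled by length, with 38.3, 59.8 and 36.3 CPM in untreated and 14.5, 27.3 and 12.8 CPM in treated 1, 2 and 3. The groups did not overlap, and the log2 fold change was -1.29 ± 0.36 (unadjusted p 0.00873, adjusted p 0.592 in edgeR). Exons of *Zmynd15* overlap it on the opposite strand, and since the strand setting of the counting is not given, reads of the pair cannot be told apart. *Zmynd15* had 11.8, 10.3 and 10.4 CPM against 2.32, 4.22 and 2.36 CPM. *Ccl5* (chromosome 11, 83525778 to 83530518), a ligand of Ccr1 and Ccr3 known from T cells and macrophages, had 9.53, 16.7 and 6.50 CPM in untreated and 6.08, 5.71 and 3.36 CPM in treated tumours. Untreated 3 lay just above treated 1, and the log2 fold change of -1.10 ± 0.43 had an unadjusted p of 0.0381 in edgeR, and was -0.68 without untreated 2.

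*Ccl22* (chromosome 8, 94745590 to 94751699), a Ccr4 ligand made by dendritic cells that draws regulatory T cells, had 5.29, 1.79 and 2.21 CPM in untreated 1, 2 and 3, against 0.179, 1.36 and 0.746 CPM in treated 1, 2 and 3. These are 35, 8 and 18 counts against 1, 10 and 6, so counting error is wide. In CPM the groups did not overlap, and the log2 fold change was -1.96 ± 0.71 (unadjusted p 0.0272, adjusted p 0.592 in edgeR), -1.35 without untreated 1 and -2.62 without treated 2. *Ccl17*, the other Ccr4 ligand, was not tested for its low counts, with 5, 12 and 7 counts in untreated and 0, 0 and 1 in treated tumours. The interferon-induced Cxcr3 ligand *Cxcl10* had 6.35, 17.2 and 5.64 CPM against 4.11, 7.48 and 8.58 CPM, which overlap, and its log2 fold change of -0.50 was 0.17 without untreated 2. Its exons overlap *Art3* on the opposite strand, which had 0.136 to 1.99 CPM over the libraries. Dendritic cell markers, 6 genes, summed to 11.9 to 20.8 CPM in untreated and 9.30 to 16.5 CPM in treated tumours, most of it from *Zbtb46* and *Itgax*. The 2 tested markers, *Itgax* (log2 fold change 0.15) and *Zbtb46* (-0.16), lay in opposite directions with overlap, and *Clec9a* and *Batf3* overlapped too. Low counts kept *Flt3* and *Cd209a* from being tested. *Flt3*, a receptor of dendritic cell growth, had 2.12, 2.68 and 1.35 CPM against 0.179, 0.680 and 0.373 CPM, without overlap. *Cd209a*, a lectin of dendritic cells from monocytes, had 2.27, 5.13 and 0.491 CPM against 0.358, 0.544 and 0.249 CPM, with overlap. The part of these cells in *Ccl22* and *Ccl17* was not tested. The other Cxcr3 ligands, *Cxcl9* and *Cxcl11* had 14 and 27 counts in all.

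Receptors of T cells were near the limit of detection. *Cxcr6* (chromosome 9, 123806475 to 123811760), the receptor for Cxcl16, was the tested member of the group, with 2.42, 1.34 and 1.35 CPM in untreated and 2.68, 2.86 and 2.49 CPM in treated tumours. The groups did not overlap, though treated 3 lay just above untreated 1, and the log2 fold change of 0.64 ± 0.40 had an unadjusted p of 0.155 in edgeR. *Cxcr3*, *Ccr6* and *Ccr8* had 6, 1 and 0 counts in all, and *Ccr4* and *Xcr1*, the latter a receptor of cross-presenting dendritic cells, had 19 and 34. The markers of T and NK cells were likewise scarce, with 1 of 12 tested, a summed CPM of 1.97 to 8.62, and *Cd3e* at 0 in every library.

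Eosinophil ligands lay higher in treated tumours. *Ccl11* (chromosome 11, 82057823 to 82062955), the Ccr3 ligand eotaxin, had 1.06, 0.669 and 3.07 CPM in untreated and 4.29, 7.62 and 6.22 CPM in treated 1, 2 and 3. The groups did not overlap, and the log2 fold change was 1.84 ± 0.57 (unadjusted p 0.0141, adjusted p 0.592 in edgeR), and 2.75 without untreated 3. *Ccl24*, a further Ccr3 ligand, was not tested, with 3, 5 and 3 counts in untreated and 15, 9 and 37 in treated tumours, and *Ccl26* had none. The receptor *Ccr3* had 7 counts in all, and the eosinophil markers *Epx*, *Prg2* and *Siglecf* had at most 0.373 CPM in a library, with *Prg2* at 0 in all 6. Their list also holds mast cell markers, and its 4 tested genes, *Kit*, *Cpa3*, *Mcpt4* and *Tpsb2*, are all of mast cells, so no eosinophil marker was tested. All 4 were lower in treated tumours, 3 of them without overlap, where 10.2% of all tested genes lay below without overlap. *Kit* overlapped, with a log2 fold change of -0.18. The summed CPM of the list, mostly from these 4, was 24.3 to 52.4 in untreated and 10.9 to 16.3 in treated libraries.

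Of the homeostatic ligands *Cxcl12* (chromosome 6, 117168535 to 117181367), the stromal ligand of Cxcr4, had the highest mean CPM, not scaled by length, with 11.8, 14.5 and 29.9 CPM in untreated and 27.5, 40.1 and 67.1 CPM in treated 1, 2 and 3. Untreated 3 lay above treated 1, and the log2 fold change of 1.25 ± 0.46 had an unadjusted p of 0.0285 and an adjusted p of 0.592 in edgeR. Endothelial markers lay in the same direction, with 6 of 6 tested higher (49.9% of all tested genes were). Their summed CPM was 73.9 to 152.2 in untreated and 125.0 to 187.6 in treated tumours, and their part was not tested. Of the 8 fibroblast or fibrosarcoma markers, all tested, 4 were higher and 4 lower, with a median log2 fold change of -0.04. Their part was not tested either. *Cxcl14*, a chemokine of epithelia and fibroblasts, had 20.6, 12.9 and 20.7 CPM against 28.4, 10.9 and 16.5 CPM and a log2 fold change of 0.03. *Ccl25*, a Ccr9 ligand, had 2.94 to 4.84 CPM in untreated and 3.93 to 5.72 CPM in treated tumours, and its exons overlap *Elavl1* on the opposite strand. *Cxcl13*, which organises B cell follicles, and *Ccl27a*, a skin chemokine, were not tested, with 24 and 16 counts in untreated and 5 and 3 in treated tumours. Markers of B cells summed to at most 1.25 CPM in a library. Exons of *Ccl27a* overlap *Il11ra1* on the opposite strand, which had 40.1 to 153.3 CPM in untreated and 19.4 to 33.9 CPM in treated tumours. Beside *Ccl27a*, the summed CPM of 7 keratinocyte markers was 1264 and 625.7 in untreated 1 and 2 and 4.22 to 65.3 in the other 4 libraries, and their part was not tested.

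Among homeostatic receptors *Cxcr4* (chromosome 1, 128588199 to 128592293), the Cxcl12 receptor of most white cells and many tumour cells, had 9.53, 9.60 and 10.2 CPM in untreated and 6.08, 9.93 and 10.3 CPM in treated tumours. The groups overlapped, and the log2 fold change of -0.15 ± 0.28 (unadjusted p 0.613 in edgeR) was 0.05 without treated 1, the lowest library. *Ccr7*, which guides dendritic and T cells to lymph nodes, had 1.12 to 1.84 CPM against 0.746 to 1.63 CPM, and *Ccr10* had 0.223 to 3.33 CPM against 2.24 to 3.04 CPM.

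Atypical receptors lay in opposite directions. *Ackr4* (chromosome 9, 104084157 to 104126933), a scavenger of Ccl19, Ccl21 and Ccl25, had 4.08, 6.47 and 4.42 CPM in untreated 1, 2 and 3, against 1.25, 1.36 and 0.870 CPM in treated 1, 2 and 3. The groups were well apart, with the lowest untreated value above the highest treated value by more than the range within the treated group. Its log2 fold change of -2.08 ± 0.39 had the smallest p of all members in edgeR (unadjusted 0.0011, adjusted 0.592). DESeq2 called it lower, with a log2 fold change of -2.12 and an adjusted p of 0.0196, and the edgeR value lay between -2.22 and -1.87 when any 1 library was left out. DESeq2 without untreated 2 gave it no adjusted p (log2 fold change -1.89, unadjusted p 0.00275). Exons of *Acad11*, a mitochondrial enzyme gene, overlap it on the opposite strand and their reads cannot be told apart without the strand setting. *Acad11* had 33.4, 78.3 and 33.4 CPM against 19.3, 29.7 and 16.8 CPM, also without overlap, with a log2 fold change of -1.14 ± 0.41.

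*Ackr3* (chromosome 1, 90203980 to 90216751), which clears Cxcl12, had 9.38, 19.2 and 19.6 CPM in untreated and 19.8, 32.7 and 34.8 CPM in treated 1, 2 and 3. Treated 1 lay just above untreated 3, and the log2 fold change of 0.86 ± 0.36 had an unadjusted p of 0.0474 and an adjusted p of 0.592 in edgeR. *Ackr1*, a chemokine-binding protein of venules and red cells, was not tested, with 3, 1 and 5 counts in untreated and 8, 10 and 6 in treated tumours, and its exons overlap *Cadm3* on the same strand. *Ackr2*, which clears inflammatory CC chemokines, had 11 counts in each group.

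Of the 15 members under 10 counts, the ligands were *Ccl1*, *Ccl19*, *Ccl20*, *Ccl21a*, *Ccl21b*, *Ccl21c*, *Ccl26*, *Ccl27b* and *Cxcl17* and the receptors *Ccr1l1*, *Ccr3*, *Ccr6*, *Ccr8*, *Cxcr1* and *Cxcr3*. No count at all was found for 6 of them (*Ccl1*, *Ccl21b*, *Ccl21c*, *Ccl26*, *Ccl27b* and *Ccr8*), which at these depths allows up to 0.368 to 0.669 CPM in a library (3 counts, counting error only). *Ccl21a* to *Ccl21c* and *Ccl27a* and *Ccl27b* are near-identical copies, so their counts are uncertain. A further 15 members had at least 10 counts and did not pass the filter. Beside those described above, they were the lymphocyte attractant *Xcl1* (6 counts in untreated and 5 in treated tumours), the mucosal chemokine *Ccl28* (7 and 8), the gut-homing receptor *Ccr9* (21 and 15) and the follicle receptor *Cxcr5* (6 and 9). Exons of *Xcl1*, *Ccr9* and *Cxcr5* overlap *Gm20743*, *Slc6a20a* and *Bcl9l* on the opposite strand. *Bcl9l* had 7.36 to 218.6 CPM over the libraries, and *Gm20743* and *Slc6a20a* at most 0.756 CPM. In 2 of the 15, *Ccl24* and *Ackr1*, treated values were all higher than untreated ones, and in 2, *Ccl17* and *Cxcl15* (a chemokine of lung epithelium, 23 counts against 3), all lower. These 4 were named after their values were seen. Of all tested genes 10.6% lay above and 10.2% below without overlap, and the share over genes that did not pass the filter was not computed.

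Compared per length, as CPM per kilobase of the longest GENCODE M21 transcript averaged over the 6 libraries, *Ccl2* had the highest value of all members at 56.2, with *Ccl7* at 42.3, *Ccl6* at 41.5 and *Ccl8* at 40.9. Their ranges over libraries overlapped widely (11.5 to 85.1 for *Ccl2* and 3.68 to 95.3 for *Ccl6*), so these neighbours do not differ beyond their spread, and in untreated 1 and 3 *Ccl8* (27.8 and 64.6) lay above *Ccl2* (11.5 and 47.9). *Ccl12* at 18.6, *Ccl9* at 15.9 and *Ccr1*, the highest receptor, at 15.4 came next, ahead of *Ccl5* at 12.0, *Cxcl16* at 11.7 and *Ccr2* at 11.5. The neutrophil ligands *Cxcl2* and *Cxcl1* averaged 9.98 and 8.30, and *Cxcl2* had the wider range (0.146 to 23.0).

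The wider pathway was read from lists of genes outside the symbol rule. Over all tested genes 49.9% were higher and 50.1% lower. Of 28 tested signalling genes downstream of chemokine receptors (G protein subunits, PI3 kinase subunits, Rac activators, arrestins and receptor kinases), 10 were higher and 18 lower. Their median log2 fold change was -0.11, and none was at an unadjusted p under 0.05 in edgeR. Of 11 chemokine-related genes outside the symbol rule, 9 were higher and 2 lower, with a median of 0.36. In this list *Rarres2*, which codes for the attractant chemerin, had 2.57, 2.90 and 11.3 CPM in untreated and 10.6, 24.1 and 31.5 CPM in treated tumours and an unadjusted p of 0.0212 in edgeR. Its groups overlapped, with untreated 3 above treated 1. *Cd74* lay lower without overlap, with 116.6, 42.85 and 45.4 CPM in untreated and 15.4, 36.3 and 40.8 CPM in treated tumours. Its log2 fold change was -1.14, with an unadjusted p of 0.0604 in edgeR. *Ppbp* and *Pf4*, the platelet chemokines of the CXC family, overlapped between the groups, with 1.82 to 4.42 against 2.86 to 13.4 CPM and 5.75 to 32.9 against 21.1 to 55.0 CPM.

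Several ligand values rested on untreated 3, which held the highest untreated level of *Cxcl1*, *Cxcl2*, *Cxcl3*, *Cxcl5*, *Ccl3*, *Ccl4*, *Ccl6*, *Ccl9* and *Ccl11*. Without it the log2 fold change went from 2.56 to 6.54 in *Cxcl2*, from 2.51 to 5.30 in *Cxcl3*, from 2.05 to 4.78 in *Ccl3*, from 2.81 to 5.43 in *Ccl4* and from 1.46 to 2.99 in *Ccl6*. It also went from 1.81 to 2.47 in *Cxcl1*, from 1.95 to 3.14 in *Cxcl5* and from 1.84 to 2.75 in *Ccl11*. Untreated 1 and 2, then the whole untreated group, held 2 and 2 counts of *Cxcl2* and 1 and 3 of *Cxcl3*. They held 3 and 1 counts of *Ccl3* and 0 and 1 of *Ccl4*, so the size of these fold changes rests on very few counts. EdgeR then still called 0 members (0% of genes higher and 0.0313% lower), with 11 of 33 higher and 7 lower at an unadjusted p under 0.05, against 5.12% and 8.08% of genes. DESeq2 without untreated 3, added after seeing the data, called 9 members higher (*Cxcl1*, *Cxcl2*, *Cxcl3*, *Cxcl5*, *Ccl3*, *Ccl4*, *Ccl6*, *Ccl11* and *Cxcl12*) and 2 lower (*Ccr2* and *Ackr4*), where it called 1.00% and 1.78% of genes. Without untreated 2, edgeR called 0 members, with 8 of 34 higher and 5 lower at an unadjusted p under 0.05, against 9.55% and 8.85% of genes. DESeq2 without untreated 2 called *Ccl7* higher and *Cx3cr1* lower (adjusted p 0.0259 and 0.00115), where it called 0.810% and 1.19% of genes, and gave *Ackr4* no adjusted p. The groups then did not overlap in 11 members above and 8 below, against 19.6% of genes in each direction, and without untreated 3 in 15 above and 6 below, against 17.9% and 17.5%. The number of tested members higher in treated tumours was 18 of 32 with all libraries and 18 to 20 with any 1 left out. The tested set changed with the libraries, to 34 members without untreated 2 and 33 without untreated 3, so the range is not over the same members.

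**Figure D5:**
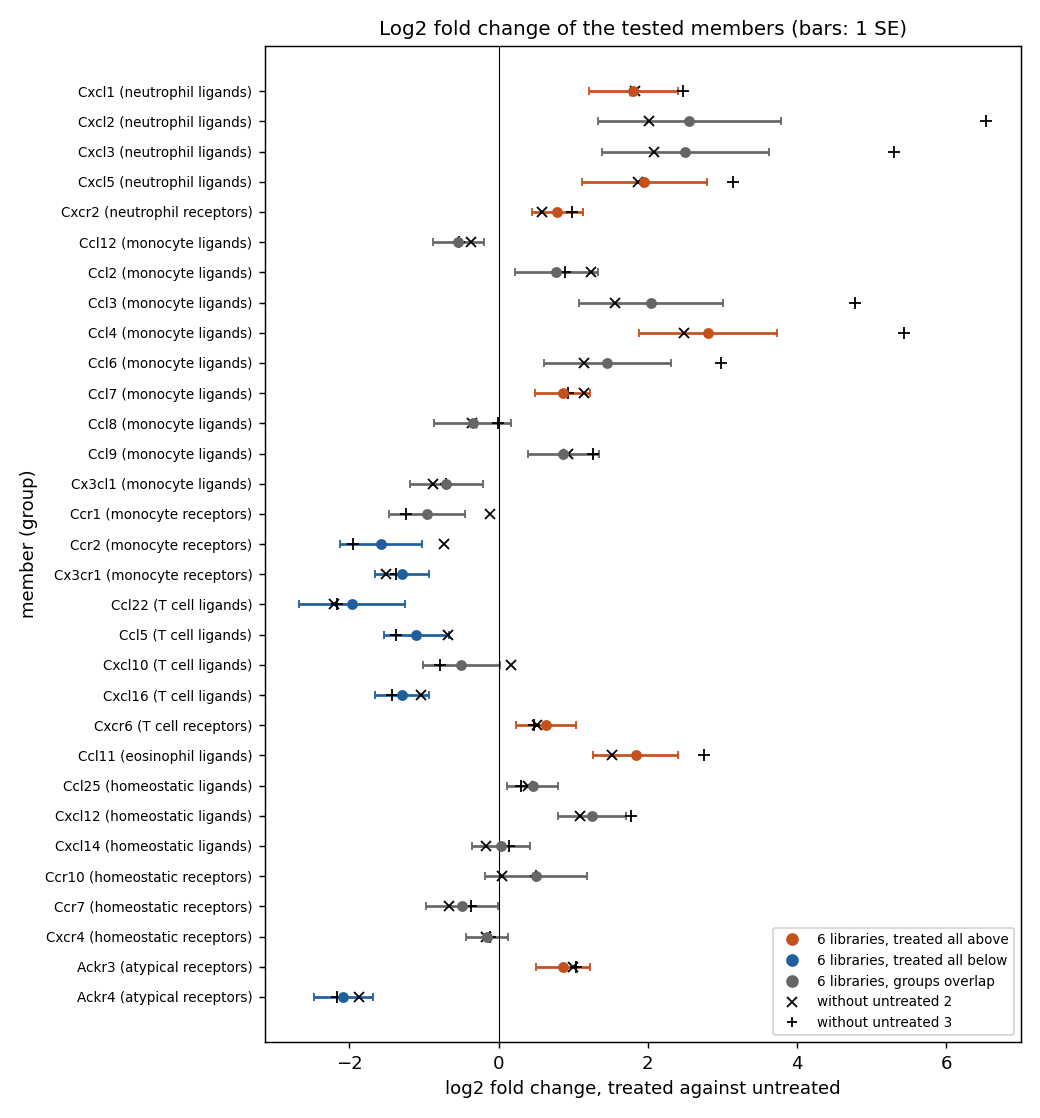
Log2 fold change of treated against untreated tumours (horizontal axis) for tested members, with bars of 1 SE from edgeR and colours for whether the 3 treated values lay all above, all below or across the untreated ones. Crosses and plus signs give the value without untreated 2 and without untreated 3, which reaches 6.54 in *Cxcl2*. That value rests on 2 counts each in untreated 1 and 2.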

How the data were processed

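Total RNA from Trizol went into a directional library kit, per the labels' protocols. TopHat and the build mm10 are named in the submitters' processing notes; for the counting program, its strand setting and annotation, the sources used here give nothing. The authors deposited raw counts for each gene symbol, used without rescaling. With edgeR 4.0.16 (R 4.3.3) genes were filtered by filterByExpr (smallest count 10), scaled by TMM and tested by the quasi-likelihood test, 2-sided, with Benjamini-Hochberg adjustment over all 12517 tested genes. The SE comes from the F statistic (log2 fold change over its root). CPM use TMM library sizes; mean and spread are over 3 libraries per group, where an exact permutation test cannot give a p under 0.1. Replicate libraries were checked and none agreed within sampling noise (chi-square per gene 9.50 or more). Positions are from GENCODE M21 (mm10), and promoter windows from RefSeq (GRCm38.p6), found for 46 of 62 members. Members and lists were chosen with earlier results of these data known. The values of 1 tested member are not reported here; it stays in the fits and counts of members but not in summed CPM or plots. Values in each library with statistics are given for tested members at an unadjusted p under 0.05, those DESeq2 called and the highest ligand or receptor of each group, and values of other members were added where a group is described. Alternatives were DESeq2 1.42.0, limma-voom (limma 3.58.1), other scalings and filters, leaving out each library and the replicate number as a block; DESeq2 without untreated 2 or 3 was added after seeing the data. The steps were tested on simulated data with a lower spread than the real one, which does not show what they recover at the real spread.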

Additional observations from a re-analysis of the deposited data

How the results depend on the processing

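EdgeR called 0 genes and 0 members with either other scaling, with either other filter, with the replicate block and without any 1 library, except that without untreated 3 it called 4 genes lower, none of them a member (range without 1 library 0 to 4 lower and 0 higher). DESeq2 called 17 genes higher and 29 lower, and 1 member lower. Without untreated 2 it called 1 member higher and 1 lower, and without untreated 3, 9 higher and 2 lower. Why the tools differ was not tested. With no filter, 23 members lay higher and 33 lower, against 18 and 14 with the filter, because genes of few counts enter. The balance of directions thus depends on the filter. *Cxcr4* had a log2 fold change of -0.28 to 0.047 without 1 library, above 0 without treated 1. Of the other alternative values for the 16 members named by the rule, 221 kept direction and side of the threshold, 9, all from DESeq2, kept direction and passed it, and 4 from DESeq2 kept direction with no adjusted p. Eosinophil receptors, under 10 counts, were left aside here. The log2 ratio of each other group's summed CPM moved by less than the spread between libraries in each scaling and without any 1 library. That limit is so wide that leaving out 1 of 3 libraries can hardly pass it, so it does not show that the ratios are stable. Without 1 library they ran from 1.65 to 3.41 in neutrophil ligands and from -1.60 to -0.79 in monocyte receptors. The ratio of homeostatic receptors, -0.09, changed sign without untreated 1 (0.0084) and without treated 1 (0.063), and the others kept theirs. Samples of the same number share only the number: the correlations of their deviations from the group means were -0.182, -0.11 and 0.108 for numbers 1, 2 and 3, and with the replicate block 17 members lay higher and 15 lower. Members under about 10 counts are beyond the depth of these libraries.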
